A study of Mus musculus with 34 samples.

Results

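The 10 genes examined mark interneurons and afferent fibres of the spinal dorsal horn, and their transcript levels were followed across spinal cord injury in mice with and without trkB.T1. They were taken by symbol from the array's probe annotation, out of 18193 annotated genes. The set holds the peptide precursors Tac1, Penk, Pdyn, Sst, Npy, Grp, Nts, Cck and Gal, and Calb2, which encodes the calcium-binding protein calretinin and no peptide. These symbols belong to 11 probe sets, and a gene was read from whichever of its probe sets averaged highest over the 34 arrays. Tac1 alone has 2 probe sets, and its other probe set averaged 2.17 on the log2 scale and was above log2 4 on 0 arrays. All 10 genes were above log2 4 on all 34 arrays, so the filter on low values removed none of them, and they are among the 11993 genes tested.

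The tissue was whole spinal cord, and the groups were trkB.T1 knockout (KO) and wild-type (WT) mice, sampled 1, 3 or 7 days after spinal cord injury or after a sham operation in which the cord was not damaged. TrkB.T1 is the truncated, kinase-free form of the receptor for brain-derived neurotrophic factor, which the gene Ntrk2 encodes. KO cords gave 4 sham arrays and 4, 5 and 4 arrays at days 1, 3 and 7, and WT cords 4 sham arrays and 5, 4 and 4 arrays. The labels used here give no strain, age, injury level or injury device, and leave unsaid whether 1 animal or several gave an array, so p-values measure the spread between samples, which may be technical. The number of arrays limits the precision. Every level is a deposited log2 value, on which 1 unit is a doubling of signal, and levels of different genes are not set against each other. Levels are given with the SD over the arrays of a group, and log2 differences with their standard error. A difference passed where limma's Benjamini-Hochberg adjusted p over the 11993 genes was below 0.05.

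The superficial dorsal horn receives pain, itch and temperature fibres and holds excitatory and inhibitory interneurons that are told apart largely by the peptides they make. Peptides are cut from larger precursors, stored in dense-core vesicles and act on G protein-coupled receptors, so they shape transmission more slowly than glutamate, GABA or glycine. Most of these genes are transcribed in the cord's own neurons, while some of the peptide in the dorsal horn, such as substance P, also arrives in the fibres of sensory neurons whose cell bodies, and mRNA, lie outside the cord.

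The promoters of 4 genes are shown because 3 of them (Sst, Cck and Nts) were lower after injury and the other (Gal) was higher. Each is the 300 bases from 250 before to 50 after the start of the gene in RefSeq on GRCm38.p6, printed 5′ to 3′ on the gene's own strand, which is the minus strand for all 4. Capitals mark a match to a motif searched on both strands: the cAMP response element (CRE) TGACGTCA, its variant TGCGTCA, or the AP-1 motif TGACTCA.
Sst, chr16:23890795-23891094: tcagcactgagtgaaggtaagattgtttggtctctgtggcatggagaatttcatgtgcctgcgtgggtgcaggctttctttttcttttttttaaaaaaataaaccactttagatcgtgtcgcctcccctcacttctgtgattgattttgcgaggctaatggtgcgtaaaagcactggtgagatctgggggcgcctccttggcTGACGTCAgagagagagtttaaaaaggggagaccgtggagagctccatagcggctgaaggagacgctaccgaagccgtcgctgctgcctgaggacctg
Cck, chr9:121495645-121495944: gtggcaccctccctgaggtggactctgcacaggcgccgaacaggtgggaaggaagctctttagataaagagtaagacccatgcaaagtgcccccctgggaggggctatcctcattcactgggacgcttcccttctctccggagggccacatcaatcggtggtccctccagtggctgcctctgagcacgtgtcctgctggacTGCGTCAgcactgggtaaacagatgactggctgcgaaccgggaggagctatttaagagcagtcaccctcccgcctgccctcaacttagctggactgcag
Nts, chr10:102490369-102490668: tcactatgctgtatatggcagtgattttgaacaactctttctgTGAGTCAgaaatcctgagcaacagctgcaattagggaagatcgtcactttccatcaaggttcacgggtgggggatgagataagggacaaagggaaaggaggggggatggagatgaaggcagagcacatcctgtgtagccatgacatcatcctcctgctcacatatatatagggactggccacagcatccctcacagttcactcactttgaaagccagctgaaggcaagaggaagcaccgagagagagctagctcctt
Gal, chr19:3414495-3414794: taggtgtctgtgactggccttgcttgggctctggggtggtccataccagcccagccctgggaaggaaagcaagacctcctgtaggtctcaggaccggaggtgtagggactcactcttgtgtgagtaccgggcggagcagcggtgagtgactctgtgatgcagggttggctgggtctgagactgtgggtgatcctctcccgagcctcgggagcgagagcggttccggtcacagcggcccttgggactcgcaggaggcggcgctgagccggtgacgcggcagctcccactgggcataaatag
The Sst promoter holds the CRE with its first base at position -48 from the start of the gene, and 1.79% of the 32851 promoters of this length in the table hold that motif on either strand. The Cck promoter holds the variant at -49, and Tac1, on the plus strand at chr6:7554811-7555110, holds it at -199. This variant was found in 2.12% of promoters. The Nts promoter holds AP-1 on the opposite strand, read here as TGAGTCA, at -207, a motif in 5.2% of promoters. The Gal window holds none of these letters, and no match overlapped another. Promoters of 7 of the 10 genes were in the table, with Penk, Grp and Calb2 the other members. A match is a description of the sequence and not a measured binding site.

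Facts of the whole series bear on every value that follows. The array labelled KO sham replicate 2 had log2 values of 9.46 and 8.59 on the 2 Ntrk2 probe sets that read between 2.83 and 4.94 on the other KO arrays, so on these probe sets it goes against its label. WT arrays read 10.01 to 10.86 and 8.65 to 9.92 there, above this array on both. Without this array, 1 of the 13 differences that passed for the 10 genes in KO cords was lost, and no passing difference moved by more than 0.0731. KO day 3 replicates 3 and 4 had the lowest means of 15 pan-neuronal genes on any array. Passing differences of the 10 genes that use them are also given without these 2 arrays, where that ends a call or moves the value by over 1.5 times. This alternative was chosen after seeing the data. Other differences that use these 2 arrays are given with them only. The mean of 7 caudal Hox genes, which mark position along the cord, was 8.76 ± 0.12 in KO sham and 7.09 ± 0.31 in WT sham arrays, with no overlap. In this mean the array labelled KO sham replicate 2 read 8.83, with the other KO sham arrays. The mean of 7 skeletal muscle genes was 9.49 ± 1.20 in KO sham and 6.16 ± 3.10 in WT sham arrays. The tissue label held, in that 15 of 15 pan-neuronal genes on the array were above the filter, while of 7 markers of sensory ganglion cell bodies Pou4f1 was above it and Scn10a, Scn11a, Trpv1, P2rx3, Avil and Pirt were not.

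After injury the panel did not move as a block. In KO cords 2, 5 and 1 of the 10 genes were lower than in sham at days 1, 3 and 7, and 2, 1 and 2 were higher. In WT cords 4, 4 and 4 were lower at the same days, and 1, 1 and 1 was higher. Injury moved much of the transcriptome. Among all tested genes, 27.3%, 38.8% and 31% were lower and 23.7%, 30.9% and 23.5% higher in KO cords at days 1, 3 and 7. In WT cords 32.5%, 37.4% and 33.3% were lower and 27.1%, 29.5% and 25.8% higher, so a count of 1 to 5 lower genes in 10 lies near the share of all genes. The median difference of the 10 genes was -0.11, -0.55 and 0.05 in KO cords and -0.59, -0.39 and -0.40 in WT cords, against -0.05 to -0.06 for all tested genes. What distinguished the genes was direction and time course. Sst, Cck, Nts and Calb2 supplied 17 of the 20 lower differences, and Gal supplied 6 of the 8 higher ones.

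**Figure D1:**
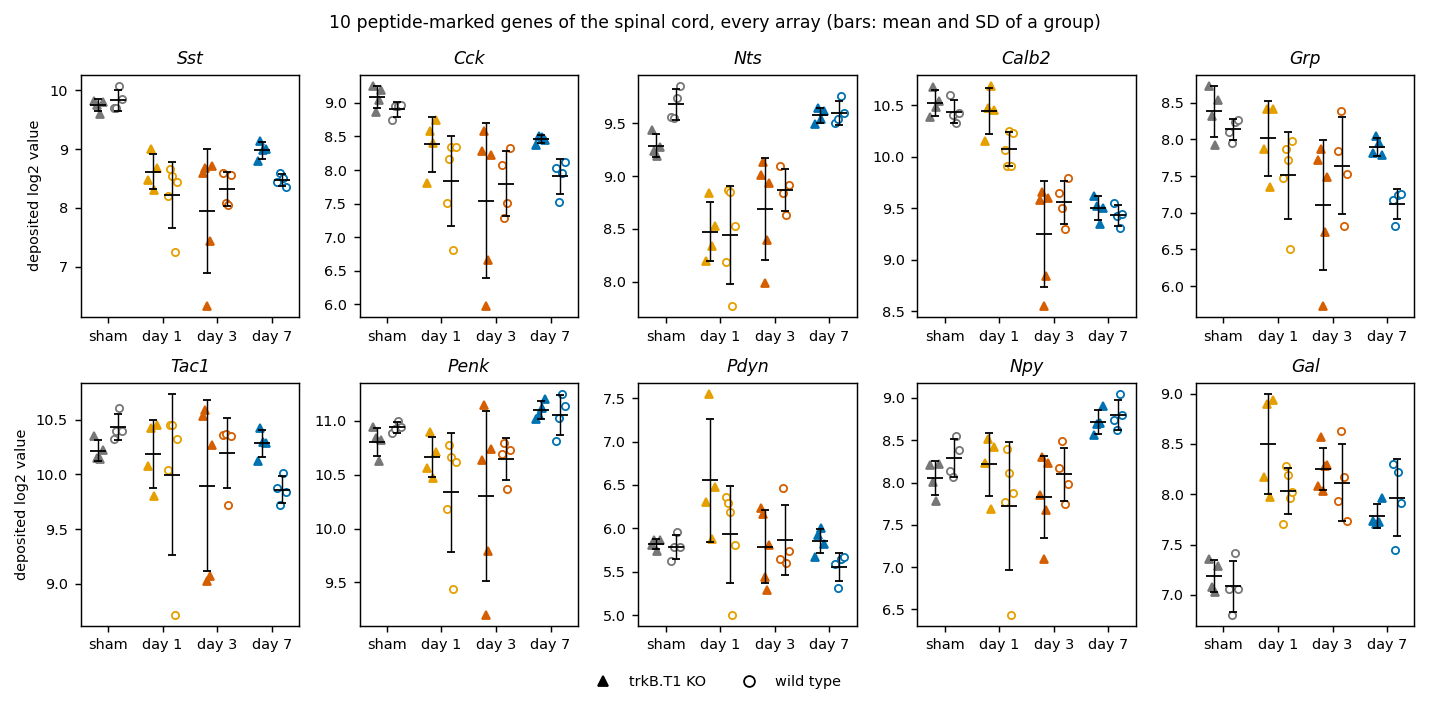
Deposited log2 values of the 10 genes on every array, by time after injury (sham, day 1, day 3, day 7), with trkB.T1 KO arrays as filled triangles on the left and wild-type arrays as open circles on the right of each time. Bars are the mean and SD of a group, and vertical scales differ between genes. Injured arrays of Sst and Cck lie below the sham arrays of their genotype, those of Gal above them, Nts is back near its sham level at day 7, and Calb2 drops between days 1 and 3.

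Sst encodes somatostatin, a peptide that inhibits through Gi-coupled receptors and in the mouse dorsal horn marks a large set of excitatory interneurons. It fell after injury in 5 of the 6 comparisons, and every injured array was below every sham array of its genotype in all 6. In KO cords, Sst read 9.82, 9.75, 9.60 and 9.81 in sham arrays, 8.47, 8.995, 8.31 and 8.68 on day 1, 8.60, 8.67, 6.33, 7.43 and 8.71 on day 3 and 8.79, 9.13, 8.99 and 9.01 on day 7, in replicate order. In WT cords, Sst read 9.69, 9.69, 10.08 and 9.85 in sham arrays, 8.20, 8.67, 8.55, 7.26 and 8.43 on day 1, 8.59, 8.09, 8.05 and 8.56 on day 3 and 8.44, 8.59, 8.50 and 8.35 on day 7. The lowest values sit on KO day 3 replicates 3 and 4 and WT day 1 replicate 4. The KO differences from sham were -1.13 ± 0.34 (adjusted p = 0.00689) at day 1, -1.80 ± 0.32 (adjusted p = 1.53e-05) at day 3 and -0.77 ± 0.34 (adjusted p = 0.0564) at day 7. The WT differences were -1.61 ± 0.32 (adjusted p = 0.000122) at day 1, -1.51 ± 0.34 (adjusted p = 0.000309) at day 3 and -1.36 ± 0.34 (adjusted p = 0.00116) at day 7. At KO day 3 this is 3.47 times lower than in KO sham. Without KO day 3 replicates 3 and 4 it was -1.08 (adjusted p = 9.28e-05). The KO day 7 difference passed in some alternative limma fits, among them that with only the groups compared (adjusted p = 6.23e-05).

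Cck, the cholecystokinin precursor, marks excitatory interneurons of the deeper dorsal horn. Its injured arrays were also below all sham arrays of their genotype in all 6 comparisons, and 4 of these passed. In KO cords, Cck read 9.25, 8.87, 9.04 and 9.19 in sham arrays, 7.81, 8.58, 8.40 and 8.75 on day 1, 8.29, 8.58, 5.98, 6.65 and 8.23 on day 3 and 8.37, 8.51, 8.50 and 8.45 on day 7. In WT cords, it read 8.74, 8.96, 8.96 and 8.96 in sham arrays, 7.52, 8.16, 8.34, 6.81 and 8.35 on day 1, 8.07, 7.28, 7.51 and 8.33 on day 3 and 8.02, 7.53, 7.96 and 8.12 on day 7. Day 7 arrays were tight in KO cords and stayed under sham in both genotypes. The KO differences were -0.70 ± 0.39 (adjusted p = 0.135), -1.54 ± 0.37 (adjusted p = 0.00058) and -0.63 ± 0.39 (adjusted p = 0.178) at days 1, 3 and 7. The WT differences were -1.07 ± 0.37 (adjusted p = 0.0152), -1.11 ± 0.39 (adjusted p = 0.0148) and -0.997 ± 0.39 (adjusted p = 0.0304). The KO day 3 value was -0.72 without replicates 3 and 4 (adjusted p = 0.0259). The KO differences at days 1 and 7 passed in some alternative limma fits. With only the groups compared their adjusted p were 0.014 and 0.000242. The WT day 1 difference did not pass without WT day 1 replicate 4 (-0.81, adjusted p = 0.0628), and the WT day 3 difference did not pass without WT day 3 replicate 2 (adjusted p = 0.0544). The WT day 7 difference was lost in 4 of the 34 fits that left out 1 array, among them that without WT day 7 replicate 2.

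Nts encodes neurotensin, found in excitatory interneurons of lamina II and III. It fell early and did not pass at day 7. In KO cords, Nts read 9.44, 9.24, 9.19 and 9.28 in sham arrays, 8.19, 8.84, 8.33 and 8.53 on day 1, 9.01, 9.14, 7.99, 8.40 and 8.93 on day 3 and 9.49, 9.65, 9.54 and 9.62 on day 7. In WT cords, Nts read 9.56, 9.55, 9.74 and 9.86 in sham arrays, 8.19, 8.87, 8.85, 7.77 and 8.53 on day 1, 9.10, 8.84, 8.63 and 8.91 on day 3 and 9.50, 9.54, 9.76 and 9.60 on day 7. Day 7 arrays overlapped the sham arrays in WT cords and lay above all of them in KO cords. The KO differences were -0.81 ± 0.20 (adjusted p = 0.00175) at day 1, -0.59 ± 0.19 (adjusted p = 0.00774) at day 3 and 0.29 ± 0.20 (adjusted p = 0.24) at day 7. The WT differences were -1.24 ± 0.19 (adjusted p = 5.09e-06) at day 1, -0.81 ± 0.20 (adjusted p = 0.00101) at day 3 and -0.08 ± 0.20 (adjusted p = 0.754) at day 7. At KO day 3 the difference did not pass without replicates 3 and 4 (-0.26, adjusted p = 0.21).

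Calb2, or calretinin, buffers calcium in lamina II interneurons and other cord neurons. It fell late. In KO cords, Calb2 read 10.38, 10.68, 10.48 and 10.55 in sham arrays, 10.16, 10.48, 10.69 and 10.46 on day 1, 9.58, 9.66, 8.55, 8.84 and 9.60 on day 3 and 9.62, 9.53, 9.34 and 9.50 on day 7. In WT cords, Calb2 read 10.60, 10.40, 10.33 and 10.42 in sham arrays, 10.07, 9.91, 10.25, 9.91 and 10.23 on day 1, 9.64, 9.50, 9.30 and 9.79 on day 3 and 9.55, 9.42, 9.31 and 9.45 on day 7. All arrays of days 3 and 7 lay below all sham and day 1 arrays of both genotypes. WT day 1 arrays also lay below all WT sham arrays, while KO day 1 arrays overlapped KO sham arrays. The KO differences were -0.08 ± 0.17 (adjusted p = 0.736), -1.27 ± 0.16 (adjusted p = 9.09e-08) and -1.02 ± 0.17 (adjusted p = 1.49e-05) at days 1, 3 and 7. The WT differences were -0.37 ± 0.16 (adjusted p = 0.052), -0.88 ± 0.17 (adjusted p = 5.93e-05) and -1.01 ± 0.17 (adjusted p = 1.52e-05). The WT day 1 difference passed in some alternative limma fits. Among them were array weights (adjusted p = 0.00486) and only the groups compared (adjusted p = 0.00789).

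Grp, the gastrin-releasing peptide precursor of interneurons that relay itch, passed in 2 of 6 comparisons. In KO cords, Grp read 8.73, 8.32, 7.93 and 8.54 in sham arrays, 7.86, 8.42, 7.36 and 8.42 on day 1, 7.72, 7.87, 5.73, 6.73 and 7.49 on day 3 and 7.81, 8.05, 7.95 and 7.78 on day 7. In WT cords, Grp read 8.10, 7.95, 8.24 and 8.27 in sham arrays, 7.48, 7.86, 7.72, 6.51 and 7.98 on day 1, 7.85, 8.39, 6.81 and 7.52 on day 3 and 7.18, 6.82, 7.24 and 7.26 on day 7. Injured and sham arrays overlapped in 4 of the 6 comparisons, and the arrays of WT day 7 were all below WT sham. The difference was -1.27 ± 0.34 at KO day 3 (adjusted p = 0.00153) and -1.02 ± 0.36 at WT day 7 (adjusted p = 0.0163). The other differences were -0.37 ± 0.36 at KO day 1, -0.63 ± 0.34 at WT day 1, -0.49 ± 0.36 at WT day 3 and -0.48 ± 0.36 at KO day 7. Without replicates 3 and 4 the KO day 3 difference was -0.69 and did not pass (adjusted p = 0.0523).

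Tac1, the precursor of substance P and neurokinin A, passed in none of the 6 injury comparisons at an adjusted p below 0.05 in limma. Its group means in KO cords were 10.22 ± 0.10 in sham and 10.19 ± 0.31, 9.90 ± 0.78 and 10.28 ± 0.12 at days 1, 3 and 7. In WT cords they were 10.43 ± 0.12 in sham and 9.997 ± 0.73, 10.20 ± 0.32 and 9.86 ± 0.12 after injury. All 4 WT day 7 arrays were below WT sham, the only comparison without overlap, with a difference of -0.57 ± 0.31 (adjusted p = 0.115). This difference passed in some alternative limma fits, among them that with only the groups compared (adjusted p = 0.000553). The interval of the KO day 7 difference was -0.57 to 0.70.

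Each opioid precursor passed in 1 of the 6 injury comparisons. Penk, which yields the enkephalins, read 10.94, 10.84, 10.63 and 10.82 in KO sham, 10.56, 10.90, 10.47 and 10.71 at KO day 1, 10.64, 11.15, 9.20, 9.80 and 10.74 at KO day 3 and 11.01, 11.05, 11.12 and 11.20 at KO day 7. In WT cords, Penk read 10.89, 10.93, 10.9995 and 10.94 in sham arrays, 10.18, 10.78, 10.67, 9.44 and 10.62 on day 1, 10.69, 10.80, 10.37 and 10.73 on day 3 and 10.82, 11.02, 11.25 and 11.14 on day 7. The single passing difference was at WT day 1, -0.60 ± 0.26 (adjusted p = 0.0442). It was lost in 6 of the 34 fits that left out 1 array, those without WT day 1 replicate 4 (-0.38, adjusted p = 0.184), without WT day 1 replicate 1 and without any 1 of the 4 WT sham arrays. Pdyn, which yields the dynorphins that act on kappa opioid receptors, read 6.31, 7.54, 5.88 and 6.48 at KO day 1, against 5.81, 5.86, 5.74 and 5.86 in KO sham. All 4 KO day 1 arrays were above KO sham, replicate 3 barely and replicate 2 by the most. The difference was 0.73 ± 0.27 (adjusted p = 0.026), falling to 0.40 without KO day 1 replicate 2 (adjusted p = 0.185), and it was also lost without KO sham replicate 3. At WT day 1 Pdyn read 6.36, 6.29, 6.18, 5.005 and 5.81, against 5.62, 5.78, 5.96 and 5.79 in WT sham, with a difference of 0.15 ± 0.26 (adjusted p = 0.648). The 4 Pdyn differences at days 3 and 7 were between -0.23 and 0.07.

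Npy, made in a class of inhibitory dorsal horn interneurons, was highest at day 7. In KO cords, Npy read 8.20, 8.01, 7.78 and 8.22 in sham arrays, 8.24, 8.52, 7.68 and 8.42 on day 1, 7.86, 8.30, 7.10, 7.68 and 8.23 on day 3 and 8.57, 8.69, 8.70 and 8.90 on day 7. In WT cords, Npy read 8.14, 8.07, 8.55 and 8.39 in sham arrays, 7.77, 8.40, 8.12, 6.44 and 7.88 on day 1, 8.17, 8.49, 7.75 and 7.98 on day 3 and 8.74, 8.62, 9.04 and 8.80 on day 7. Every day 7 array of both genotypes was above every sham array. The difference at day 7 was 0.66 ± 0.28 (adjusted p = 0.0466) in KO cords and 0.51 ± 0.28 (adjusted p = 0.116) in WT cords. The KO call sits at the threshold and was lost in 18 of the 34 fits that left out 1 array, the array labelled KO sham replicate 2 among them (0.645, adjusted p = 0.0831).

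Gal encodes galanin, a peptide that sensory, motor and other neurons increase after axon damage. It rose in all 6 comparisons, and in each the injured arrays all lay above the sham arrays. In KO cords, Gal read 7.36, 7.08, 7.03 and 7.28 in sham arrays, 8.17, 8.90, 7.97 and 8.94 on day 1, 8.08, 8.57, 8.03, 8.28 and 8.29 on day 3 and 7.73, 7.71, 7.72 and 7.96 on day 7. In WT cords, Gal read 7.06, 6.80, 7.41 and 7.05 in sham arrays, 7.70, 8.29, 8.19, 7.96 and 8.02 on day 1, 7.93, 8.62, 8.17 and 7.74 on day 3 and 8.30, 7.45, 8.22 and 7.91 on day 7. The lowest injured array, at 7.45, was still above the highest sham array, at 7.41. The KO differences were 1.31 ± 0.20 (adjusted p = 6.74e-06) at day 1, 1.06 ± 0.19 (adjusted p = 2.04e-05) at day 3 and 0.59 ± 0.20 (adjusted p = 0.0158) at day 7. The WT differences were 0.95 ± 0.19 (adjusted p = 0.000159) at day 1, 1.03 ± 0.20 (adjusted p = 7.38e-05) at day 3 and 0.88 ± 0.20 (adjusted p = 0.000558) at day 7. At KO day 1 this is 2.48 times the KO sham signal. The KO day 7 call was lost with the skeletal muscle mean as a covariate (0.52, adjusted p = 0.0705). In whole tissue, fewer cells of a type and less RNA per cell cannot be told apart, and this holds for every difference above.

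Counted by overlap rather than by test, injured and sham arrays did not overlap for 5, 6 and 7 of the 10 genes in KO cords at days 1, 3 and 7, and for 6, 6 and 7 in WT cords. Of all tested genes 55.5%, 60.8% and 62.6% did not overlap in KO cords and 53.2%, 57.5% and 57.5% in WT cords, so these counts lie near the share of all genes. The group order repeats the pattern. For Sst both sham groups stood apart from all injured groups, which followed as KO day 7, KO day 1, WT day 7, WT day 3, WT day 1 and KO day 3 with neighbours overlapping. For Gal the 6 injured groups overlapped in a chain and both sham groups lay below it. For Npy both day 7 groups stood above the rest, and for Tac1, Grp, Penk and Pdyn all 7 neighbouring pairs of groups overlapped.

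Neuronal transcripts as a whole were lower after injury, so the genes were also read against them. The mean of 15 pan-neuronal genes, such as Snap25, Syn1 and Elavl3, was in KO cords 12.03 ± 0.05 in sham arrays and 11.65 ± 0.12, 11.003 ± 0.50 and 11.43 ± 0.03 at days 1, 3 and 7. In WT cords it was 12.05 ± 0.02 in sham arrays and 11.53 ± 0.16, 11.17 ± 0.19 and 11.31 ± 0.08 at those days. All 26 injured arrays were below every sham array in this mean. KO day 3 replicates 3 and 4 were lowest at 10.38 and 10.56, and the other KO day 3 arrays read 11.18, 11.44 and 11.45. Over deviations from group means on the 34 arrays, this mean correlated with Cck at r = 0.89, Calb2 at 0.88, Sst at 0.86, Penk at 0.81, Nts at 0.73, Tac1 at 0.72, Grp at 0.58, Npy at 0.48, Pdyn at 0.31 and Gal at 0.04, as a description of arrays that share their RNA and normalisation. The SD of this mean was 0.50 at KO day 3 and at most 0.19 in the other groups, so KO day 3 weighs most in these correlations. They were not computed without its replicates 3 and 4.

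**Figure D2:**
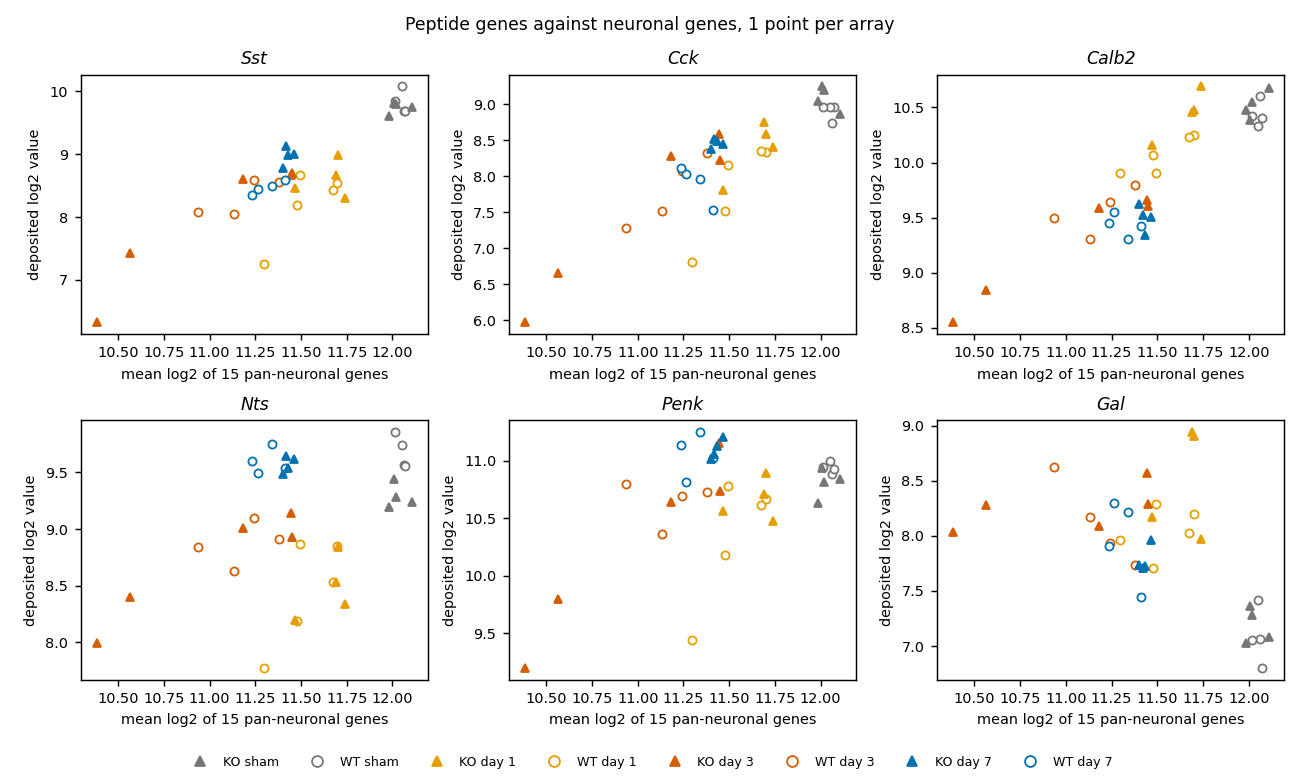
Deposited log2 values of Sst, Cck, Calb2, Nts, Penk and Gal (vertical axes) against the mean log2 value of 15 pan-neuronal genes (horizontal axes), 1 point per array, with KO arrays as filled triangles and WT arrays as open circles, coloured by time. Cck and Calb2 run along the neuronal mean, Sst on day 1 is low for its neuronal mean, Nts and Penk at day 7 reach sham levels at a lower neuronal mean, and Gal is above sham at every injured array.

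With each array's pan-neuronal mean subtracted, 2, 2 and 1 of the 10 genes were lower and 3, 6 and 6 higher in KO cords at days 1, 3 and 7. On this scale 5.47%, 4.82% and 2.74% of all tested genes were lower and 35%, 82.6% and 62% higher in KO cords. In WT cords 2, 1 and 2 of the 10 were lower and 2, 5 and 4 higher at days 1, 3 and 7. Of all tested genes 6.13%, 4.35% and 3.04% were lower and 57.3%, 78.2% and 73.8% higher there, since most genes of the tissue gain on a falling neuronal mean. A higher call on this scale was therefore common among all tested genes, and a lower call rare.

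Sst also fell relative to the neuronal mean, in 5 of the 6 comparisons. Its relative difference was -0.75 ± 0.22 (adjusted p = 0.00957) at KO day 1, -0.77 ± 0.21 (adjusted p = 0.00148) at KO day 3 and -0.16 ± 0.22 (adjusted p = 0.519) at KO day 7. In WT cords it was -1.09 ± 0.21 (adjusted p = 0.000129) at day 1, -0.63 ± 0.22 (adjusted p = 0.0119) at day 3 and -0.62 ± 0.22 (adjusted p = 0.0146) at day 7. At KO day 3 it was -0.41 without replicates 3 and 4 (adjusted p = 0.0379), and the WT day 3 value did not pass when 5 fast transmitter genes replaced the neuronal list (-0.42, adjusted p = 0.0626). Cck did not pass relative to the neuronal mean in any of the 6 comparisons, with values from -0.55 ± 0.25 at WT day 1 to -0.03 ± 0.27 at KO day 7, and passed at WT day 1 (adjusted p = 0.0146, the value unchanged) when KO day 3 replicates 3 and 4 were left out of the shared fit. Grp did not pass in any either, with values from -0.28 ± 0.30 at WT day 7 to 0.38 ± 0.30 at WT day 3.

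Nts was lower relative to the neuronal mean at day 1 and higher at day 7. The relative difference at day 1 was -0.43 ± 0.15 (adjusted p = 0.0226) in KO cords and -0.72 ± 0.14 (adjusted p = 0.000143) in WT cords, and at day 7 it was 0.89 ± 0.15 (adjusted p = 1.63e-05) in KO cords and 0.66 ± 0.15 (adjusted p = 0.000386) in WT cords. The KO day 1 value did not pass against the fast transmitter genes (-0.34, adjusted p = 0.121). Calb2 was higher at KO day 1 (0.31 ± 0.10) and lower at KO day 3 (-0.25 ± 0.09), KO day 7 (-0.42 ± 0.10) and WT day 7 (-0.27 ± 0.10). None of these lower calls held against the fast transmitter genes, where KO day 3 turned to 0.065, and KO day 3 was also lost without the array labelled KO sham replicate 2 (-0.221, adjusted p = 0.0512).

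Gal rose relative to the neuronal mean in all 6 comparisons, by 1.69 ± 0.25 (adjusted p = 4.99e-06), 2.09 ± 0.24 (adjusted p = 8.15e-09) and 1.19 ± 0.25 (adjusted p = 0.000247) in KO cords at days 1, 3 and 7. In WT cords the values were 1.47 ± 0.24 (adjusted p = 1.07e-05), 1.91 ± 0.25 (adjusted p = 1.74e-07) and 1.62 ± 0.25 (adjusted p = 3.16e-06). Npy reached 1.26 ± 0.25 at KO day 7 and 1.25 ± 0.25 at WT day 7, and Penk 0.89 ± 0.18 and 0.85 ± 0.18 at those times, all passing. Pdyn passed in 5 of 6 comparisons, 1.12 ± 0.27 at KO day 1 and 0.67 ± 0.25 at WT day 1 among them, with 0.51 ± 0.27 (adjusted p = 0.0831) at WT day 7 the exception. The KO day 7 call of Pdyn was lost in 7 of the 34 fits that left out 1 array. That without the array labelled KO sham replicate 2 (0.629, adjusted p = 0.0672) was among them. The WT day 1 call of Pdyn was lost in 3 of the 34. Tac1 passed at KO day 3 (0.71 ± 0.22), WT day 3 (0.65 ± 0.23) and KO day 7 (0.67 ± 0.23).

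**Figure D3:**
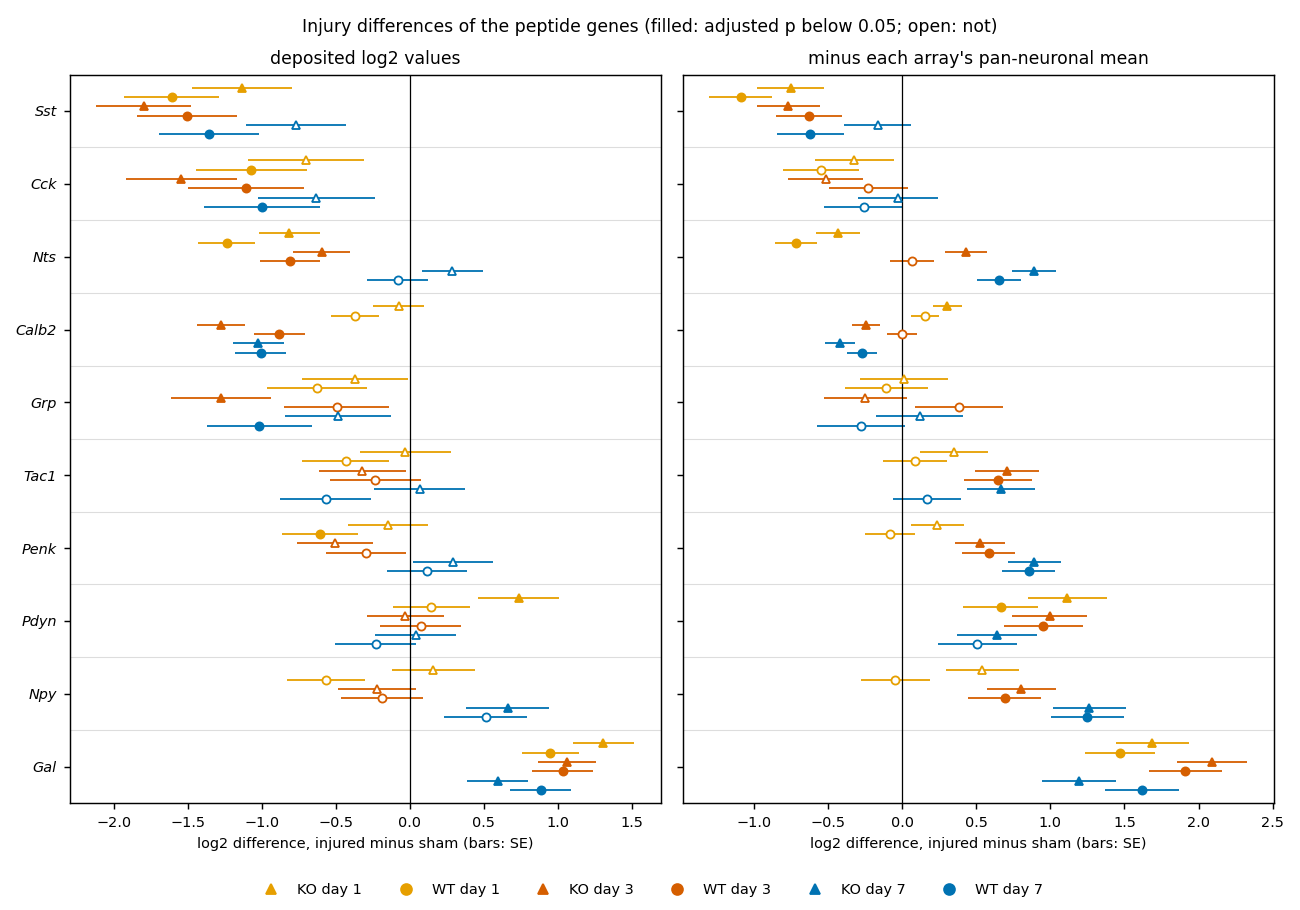
Log2 differences of injured against sham cords for the 10 genes, KO (triangles) above WT (circles) at each day, with bars for the standard error, on the deposited values (left) and after each array's pan-neuronal mean is subtracted (right). Filled points have an adjusted p below 0.05. On the left Sst, Cck, Nts and Calb2 lie mostly below 0 and Gal above. On the right Sst keeps lower filled values at days 1 and 3 and at WT day 7, Cck has no filled point, and Gal is filled at every time.

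Across days, as the mean over both genotypes, Calb2 was lower at day 3 than at day 1, and 4 genes were higher at day 7 than at day 3. Of the 10 genes, 2 were lower and 1 higher at day 3 than at day 1, against 34.3% and 26.1% of all tested genes. Calb2 changed by -0.85 ± 0.11 (adjusted p = 3.89e-07). Pdyn, at -0.42 ± 0.18 (adjusted p = 0.0497), and Nts, at 0.32 ± 0.14 (adjusted p = 0.043), sit at the threshold and were lost in 28 and 11 of the 34 fits that left out 1 array. At day 7 against day 3, 0 were lower and 4 higher, against 21.3% and 24.8% of all genes. Nts rose by 0.80 ± 0.14 (adjusted p = 4.04e-05), Npy by 0.79 ± 0.19 (adjusted p = 0.00154), Penk by 0.60 ± 0.19 (adjusted p = 0.00982) and Sst by 0.59 ± 0.23 (adjusted p = 0.0394). Without KO day 3 replicates 3 and 4, Penk (0.33, adjusted p = 0.0546) and Sst (0.23, adjusted p = 0.215) did not pass at day 7 against day 3, nor Pdyn (-0.28, adjusted p = 0.214) at day 3 against day 1, and the Nts difference at day 3 against day 1 was 0.49 (adjusted p = 0.00109). Without KO day 3 replicate 3 alone the Sst difference was 0.39 (adjusted p = 0.0685). Gal, at -0.31 ± 0.14 (adjusted p = 0.0725), did not pass.

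The study's other comparison is that of genotypes, which addresses whether loss of trkB.T1 alters the cord's response to injury. None of the 10 genes passed between KO and WT cords at any of the 4 times in limma, with 0, 3, 0 and 1 at an unadjusted p below 0.05 in sham and at days 1, 3 and 7, and 0 passed with array weights too. Of all tested genes 0.0667%, 0.859%, 0.0334% and 0.0334% passed in either direction. At day 1 all 10 genes were higher in KO than in WT cords, from 0.03 ± 0.19 for Nts to 0.62 ± 0.26 for Pdyn, with a median of 0.43 against 0.02 over all tested genes and a smallest adjusted p of 0.4. The genes share arrays, so 10 of 10 in 1 direction are not 10 separate observations. KO day 1 and WT day 1 arrays overlapped for every gene, while 5.01% of all tested genes did not overlap. Those with an unadjusted p below 0.05 were Pdyn, Gal (0.46 ± 0.19) and Calb2 (0.37 ± 0.16).

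At day 3 the differences ran from -0.54 ± 0.34 for Grp to 0.13 ± 0.19 for Gal, and KO arrays overlapped WT arrays for every gene, while 0.792% of all tested genes did not overlap. These estimates include KO day 3 replicates 3 and 4, and all but that of Gal are negative. By group median, KO day 3 was above WT day 3 for Sst (8.60 against 8.32), Cck (8.23 against 7.79), Nts, Calb2, Pdyn and Gal. It was below for Grp (7.49 against 7.68), Tac1, Penk and Npy. At day 7 they ran from -0.19 ± 0.20 for Gal to 0.77 ± 0.36 for Grp. There the 4 KO arrays did not overlap the 4 WT arrays for 4 of the genes, Sst (0.51 ± 0.34), Cck (0.55 ± 0.39), Grp and Tac1 (0.42 ± 0.31), all higher in KO, against 8.73% of all tested genes without overlap. These 4 genes share arrays and none of them passed. In sham cords Nts alone did not overlap, at -0.39 ± 0.20, against 5.07% of all tested genes. The interval of the Sst difference at day 7, -0.18 to 1.20, and that of Cck, -0.25 to 1.35, include 0 and also differences of over 1 log2 unit, so a genotype difference of that size is not excluded.

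The genotype difference in the injury response, tested directly, passed for 0 of the 10 genes at days 1, 3 and 7, with 0 at an unadjusted p below 0.05, against 0.142%, 0% and 0.00834% of all tested genes. In the limma fit with only the groups compared, Tac1 passed at day 7 (0.64, adjusted p = 0.03). Of all tested genes 0.475% passed in that fit. The point estimates at day 1 ran from 0.26 ± 0.49 for Grp to 0.73 ± 0.38 for Npy, all positive. The Sst injury response differed between KO and WT cords by 0.48 ± 0.47, -0.29 ± 0.47 and 0.59 ± 0.48 at days 1, 3 and 7. The day 3 value includes KO day 3 replicates 3 and 4, the lowest arrays for Sst in that group. Sst at KO day 7 missing the threshold while WT day 7 passed it is thus not shown to be a difference between genotypes.

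These genotype comparisons changed with the caudal Hox genes, of which 4 of 7 were higher in KO sham than in WT sham arrays. They were Hoxd9 (1.33, adjusted p = 0.0352), Hoxa10 (2.60, adjusted p = 0.000191), Hoxc10 (1.81, adjusted p = 0.00088) and Hoxd10 (5.51, adjusted p = 0.0331), while Hoxa9 (0.23), Hoxb9 (0.27) and Hoxc9 (-0.10) did not pass. Over deviations from group means, the Hox mean correlated with the 10 genes at r from 0.11 for Gal to 0.87 for Calb2. The SD of the Hox mean was widest at KO day 3 (0.75), and the correlations were not computed without replicates 3 and 4 there. With the Hox mean as a covariate, 6 of the 10 genes were lower in KO than in WT sham cords, with differences of -1.50 for Cck, -1.39 for Tac1, -1.32 for Sst, -1.14 for Penk, -1.06 for Nts and -0.73 for Calb2. On that scale 11.8% of all tested genes passed. KO and WT sham arrays do not overlap in the covariate, so their parts in these values cannot be told apart. The same covariate left the KO day 3 differences of Cck (-0.35, adjusted p = 0.355), Nts (-0.12, adjusted p = 0.649) and Grp (-0.34, adjusted p = 0.402) not passing. Those of Sst (-0.92, adjusted p = 0.0153) and Calb2 (-0.70, adjusted p = 7.14e-06) still passed. In the Hox mean, KO day 3 (6.54 to 8.17) and KO day 7 arrays (8.16 to 8.44) lay below all KO sham arrays (8.58 to 8.83). WT day 1 (7.66 to 8.64) and WT day 7 arrays (7.59 to 8.05) lay above all WT sham arrays (6.70 to 7.39). Injury and the covariate therefore cannot be told apart in these injury comparisons. KO day 1 and WT day 3 arrays overlapped their sham arrays in this mean.

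**Figure D4:**
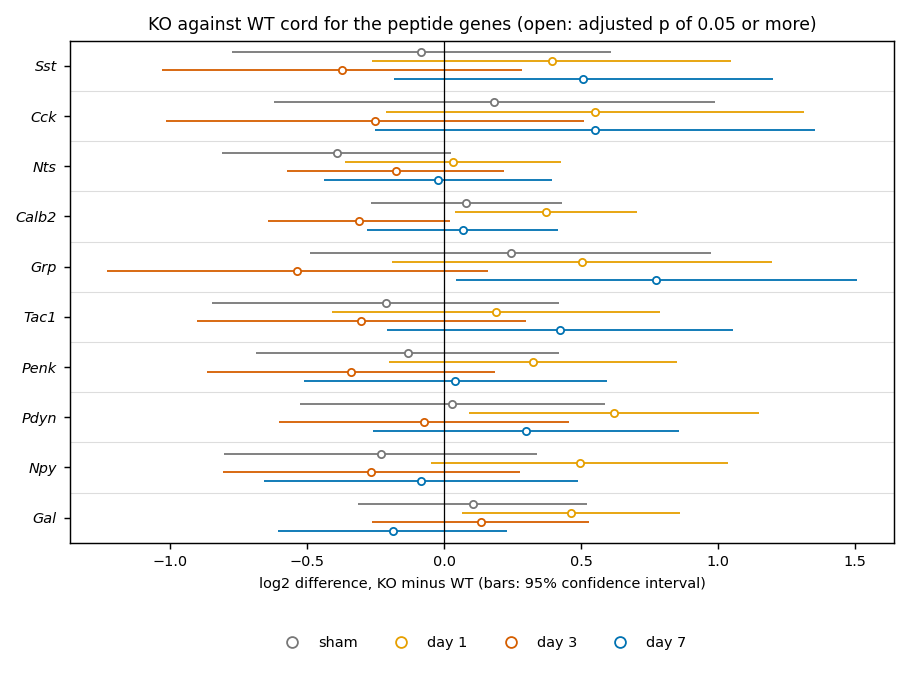
Log2 differences of KO against WT cords for the 10 genes in sham and at days 1, 3 and 7, with 95% confidence intervals of the shared fit. All points are open, since no adjusted p was below 0.05. At day 1 all 10 estimates are above 0. At day 3, with KO day 3 replicates 3 and 4 included, all but that of Gal are below 0.

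Receptors for these peptides were read from a list of 22, of which 21 are on the array and 8 were above the filter. Those left out include Tacr1, Oprm1, Oprd1, Grpr, Galr1 and Galr2, the receptors of substance P, of mu and delta opioids, of gastrin-releasing peptide and of galanin. Of the 8, 7, 8 and 6 were lower and 0 higher in KO cords at days 1, 3 and 7. In WT cords 8, 8 and 6 were lower and 0 higher. Lower were 27.3%, 38.8% and 31% of all tested genes in KO cords and 32.5%, 37.4% and 33.3% in WT cords. Oprk1, Sstr2 and Npy1r averaged above log2 4 in both sham groups and under it in 6, 5 and 4 of the 6 injured groups, so these 3 entered the tests mainly through sham arrays and had little room to be called higher. The median difference was -0.76, -1.34 and -0.72 in KO cords and -1.08, -1.20 and -1.08 in WT cords. Oprk1, the kappa opioid receptor, fell, with differences of -0.97, -1.14 and -0.81 in KO cords and of -1.17, -1.25 and -1.17 in WT cords. Its mean after injury was under log2 4 in every group, from 3.67 ± 0.12 at KO day 3 to 3.99 ± 0.29 at KO day 7, which is near background. Npy1r, a receptor of neuropeptide Y, was at 4.80 ± 0.17 in KO sham and 4.92 ± 0.11 in WT sham, and its injured means, 3.82 to 4.21, also lay near background, with differences of -1.04 to -0.59 that passed in all 6 comparisons. Sstr2, a somatostatin receptor, differed by -0.78 ± 0.17 at KO day 1 and -1.11 ± 0.16 at WT day 1. Ntsr2, a neurotensin receptor, was lower at days 1 and 3 and close to sham at day 7, with -0.91 ± 0.26, -1.66 ± 0.24 and 0.01 ± 0.26 in KO cords and -1.34 ± 0.24, -1.62 ± 0.26 and 0.05 ± 0.26 in WT cords. It passed at days 1 and 3 and not at day 7.

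Among genes that process and store peptides, more were lower than higher at every time, as among all tested genes. Of 12 tested, 3, 10 and 5 were lower in KO cords at days 1, 3 and 7, and 10, 8 and 6 in WT cords. Higher were 1, 1 and 1 in KO and 1, 1 and 2 in WT cords. The shares of all tested genes that were lower were 27.3%, 38.8% and 31% in KO cords and 32.5%, 37.4% and 33.3% in WT cords. Chga, a granin of dense-core vesicles, differed by -0.42 ± 0.22 (adjusted p = 0.119), -1.61 ± 0.21 (adjusted p = 1.66e-07) and -0.95 ± 0.22 (adjusted p = 0.000825) in KO cords. In WT cords the values were -0.70 ± 0.21 (adjusted p = 0.0064), -1.45 ± 0.22 (adjusted p = 2.88e-06) and -1.04 ± 0.22 (adjusted p = 0.000277). Vgf, a secreted granin-like precursor induced by neurotrophins and activity, rose at every time. Its level was 9.997 ± 0.10 in KO sham, 11.76 ± 0.14 at KO day 1, 11.40 ± 0.29 at KO day 3 and 10.58 ± 0.11 at KO day 7. In WT cords it was 9.65 ± 0.23 in sham arrays, 11.73 ± 0.26 at day 1, 11.55 ± 0.09 at day 3 and 10.70 ± 0.35 at day 7. The differences were 1.76 ± 0.15, 1.40 ± 0.15 and 0.58 ± 0.15 in KO cords and 2.08 ± 0.15, 1.90 ± 0.15 and 1.05 ± 0.15 in WT cords.

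Among 11 other neuropeptide genes above the filter, 4, 7 and 3 were lower in KO cords and 8, 8 and 6 in WT cords at days 1, 3 and 7. Higher were 2, 2 and 2 in KO cords and 1, 2 and 2 in WT cords. Among all tested genes 27.3%, 38.8% and 31% were lower and 23.7%, 30.9% and 23.5% higher in KO cords. The WT shares were 32.5%, 37.4% and 33.3% lower and 27.1%, 29.5% and 25.8% higher. Crh, the corticotropin-releasing hormone precursor, read 6.16 ± 0.07 in KO sham, 9.53 ± 0.13 at KO day 1, 8.36 ± 0.54 at KO day 3 and 8.997 ± 0.12 at KO day 7. In WT cords it read 6.49 ± 0.31 in sham arrays, 9.45 ± 0.40 at day 1, 9.09 ± 0.85 at day 3 and 8.78 ± 0.31 at day 7. The difference was 3.37 ± 0.29 (adjusted p = 1.47e-10) at KO day 1 and 2.97 ± 0.27 (adjusted p = 4.38e-10) at WT day 1, further from sham than Gal on this scale. Adcyap1, which encodes PACAP, rose at all 3 days, by 0.64 ± 0.20, 0.92 ± 0.19 and 1.66 ± 0.20 in KO cords. In WT cords it passed at day 3 (0.84 ± 0.20) and day 7 (1.27 ± 0.20) and not at day 1 (0.28 ± 0.19). Nmu, encoding neuromedin U, was lower in all 6 comparisons, from -2.28 ± 0.35 at WT day 3 to -0.88 ± 0.35 at KO day 7. Its lowest group mean was 4.12 and that of Nppc 4.03, near the log2 4 limit. Npff and Pomc, also among the 11, averaged under that limit in 3 and 6 injured groups, so their differences lie near background. Vip, Nppc and Cartpt were each lower in 5, 5 and 5 of the 6 comparisons.

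**Figure D5:**
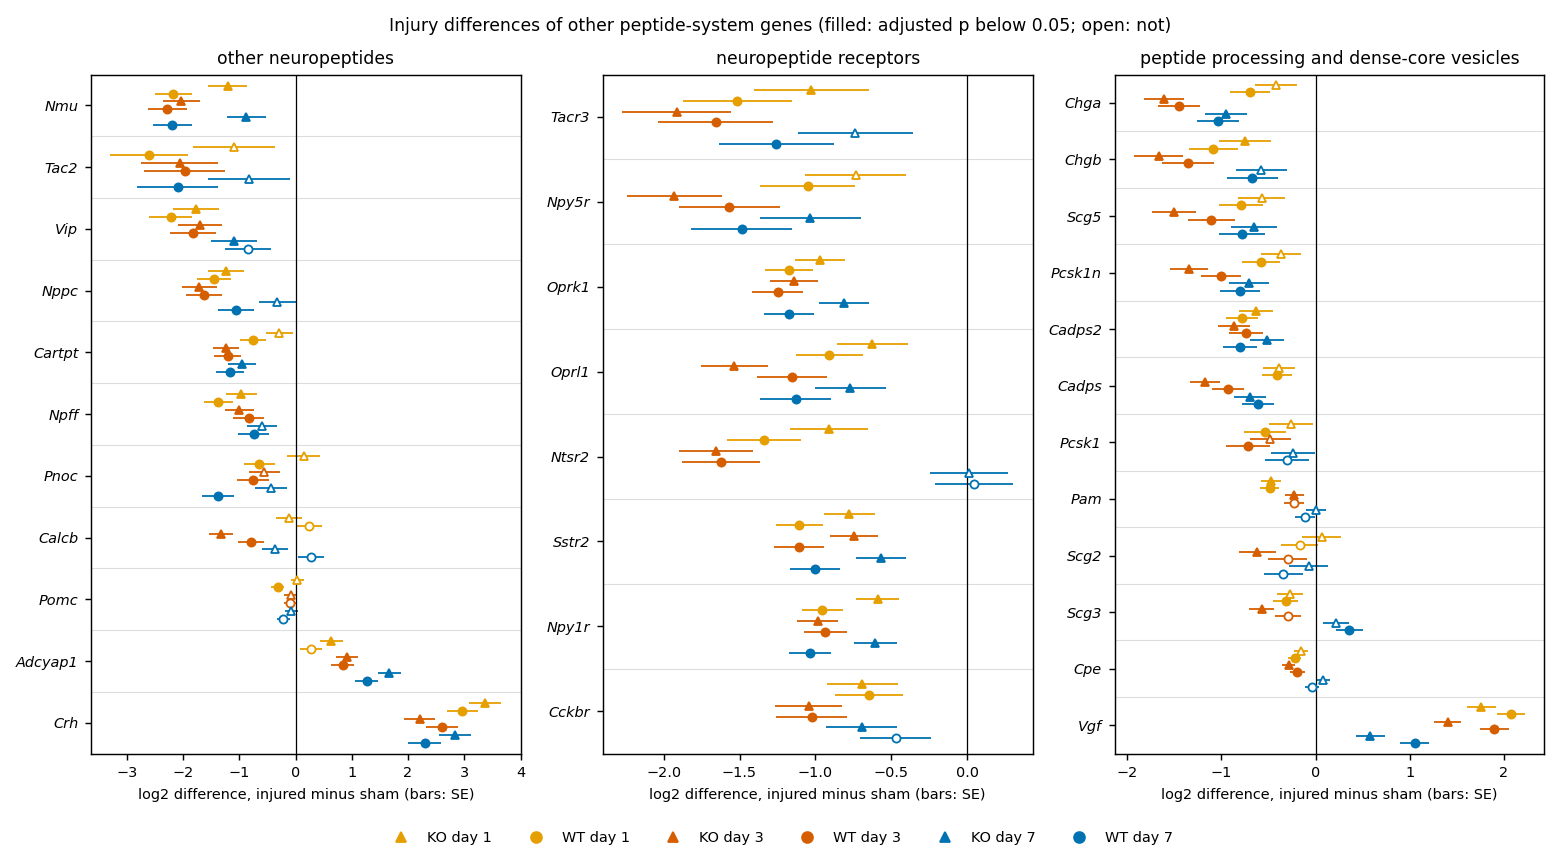
Log2 differences of injured against sham cords, with standard errors, for other neuropeptides, neuropeptide receptors and peptide processing genes above the filter, KO (triangles) above WT (circles) at each day. Filled points have an adjusted p below 0.05. Crh, Adcyap1 and Vgf lie to the right of 0, and the receptors lie to the left except Ntsr2 at day 7.

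Of 6 dorsal horn interneuron transcription factors above the filter, 3, 5 and 2 were lower in KO cords at days 1, 3 and 7. In WT cords 4, 5 and 4 were lower. The shares over all tested genes were 27.3%, 38.8% and 31% in KO cords and 32.5%, 37.4% and 33.3% in WT cords. Lbx1, required for dorsal horn association interneurons, differed by -0.81 ± 0.30, -1.12 ± 0.28 and -0.82 ± 0.30 in KO cords and by -1.21 ± 0.28, -1.06 ± 0.30 and -1.17 ± 0.30 in WT cords, passing in all 6. Its level was 4.11 ± 0.64 in KO sham and 4.25 ± 0.76 in WT sham and averaged under log2 4 in all 6 injured groups, so it entered the tests through sham arrays, and the sizes of its differences are those against levels near background. Maf went the other way at days 3 and 7, reaching 1.10 ± 0.21 in KO cords and 1.34 ± 0.21 in WT cords, and it is also expressed by macrophages. All 5 macrophage and microglia markers were higher at days 3 and 7 in both genotypes. Of all tested genes 30.9% and 23.5% were higher at these days in KO cords and 29.5% and 25.8% in WT cords. The part of macrophages in the Maf differences was not tested.

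Markers of other cells that could carry peptide RNA moved as follows. Of the 7 sensory ganglion markers on the array only Pou4f1 was above the filter, and it fell in all 6 comparisons, with differences of -1.22, -1.46 and -0.75 in KO cords and of -1.12, -1.51 and -1.37 in WT cords. With the other 6 markers not tested, this is not shown to be a fall of ganglion cells. Lower were 27.3%, 38.8% and 31% of all tested genes in KO cords and 32.5%, 37.4% and 33.3% in WT cords. Among all tested genes 23.7%, 30.9% and 23.5% were higher in KO cords at days 1, 3 and 7, and 27.1%, 29.5% and 25.8% in WT cords. Of 3 Schwann cell genes, 1, 0 and 0 were higher in KO cords at these days. In WT cords 3, 2 and 1 were higher. Of 7 axotomy-associated genes 6, 6 and 6 rose in KO cords and 6, 6 and 5 in WT cords, with Atf3, whose sham means were under log2 4, at a difference of 4.31 ± 0.34 at KO day 1 and 4.49 ± 0.32 at WT day 1. Of 6 motor neuron genes on the array, Isl1 and Prph were above the filter, while Chat, Slc18a3, Slc5a7 and Mnx1 were not. Isl1 was lower in 4 and Prph in 3 of the 6 injury comparisons. At KO day 3, the group with the 2 lowest pan-neuronal arrays, Isl1 differed by -0.84 ± 0.17 and Prph by -0.98 ± 0.24. The part of any of these in the differences of the 10 genes was not tested.

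For each of the 10, the genes whose values ran closest to it over the 34 arrays were found by Pearson r. This likeness includes the group differences themselves. Sst was closest to Calb1 (r = 0.985), which encodes the calcium-binding protein calbindin, to the glutamate receptor subunit Gria2 (0.981) and to Slc2a13 (0.981). Calb1 read 10.30 ± 0.12 in KO sham, 9.09 ± 0.32 at KO day 1, 8.31 ± 1.17 at KO day 3 and 9.66 ± 0.14 at KO day 7. Cck was closest to Tunar (0.959), Hpca (0.956) and Dlgap1 (0.954), Calb2 to Disp2 (0.970), Galnt9 (0.969) and Kcnab2 (0.966), and Nts to Mmd (0.935), Itm2c (0.932) and Ncam1 (0.929). Gal was closest to Chst11 (0.869), Rhoj (0.855) and Srgn (0.851). Grp was closest to Pitpnm3 (0.921), Hoxb9 (0.910) and Snhg11 (0.900), Tac1 to Serpinb1b (0.880), Penk to N4bp2l1 (0.882), Npy to N4bp2l1 (0.750) and Pdyn to Arfgap1 (0.744). Over deviations from group means, the closest pairs among the 10 were Sst with Penk (0.925) and Tac1 with Penk (0.924), and the weakest was Gal with Calb2 (0.0078). The SDs of Sst (1.05), Penk (0.79) and Tac1 (0.78) were widest at KO day 3. These correlations were not computed without its replicates 3 and 4.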

How the data were processed

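Each of the 34 RNA samples of whole spinal cord was hybridised to 1 Affymetrix array, from biotinylated cRNA made of 1 ug of Trizol-extracted RNA, as the labels' protocols state. The authors deposited log2 values, 1 per probe set and array. The submitters' processing notes name GCRMA, without a version. GCRMA normalises arrays to a shared distribution, so a change in total RNA per cord is not visible and a fall in one cell type's genes is relative to the rest of the tissue. The values ran from 2.17 to 15.9, and no further normalisation was applied.

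Of 45101 probe sets, 34945 had 1 gene symbol, and 34741 were matched by Entrez ID to a RefSeq table of GRCm38.p6. Each of 18193 genes was read from its probe set with the highest mean, and genes whose value exceeded log2 4 on 4 or more arrays entered the tests (11993). Linear models with 1 mean for each of 8 groups were fitted to all arrays with limma 3.58.1 under R 4.3.3 (lmFit, then eBayes, 26 residual degrees of freedom), with Benjamini-Hochberg adjustment over the tested genes of each of 15 comparisons and a threshold of 0.05. The 6 injury comparisons were repeated after subtracting each array's mean over 15 pan-neuronal genes. The fit was checked on simulated data.

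The 10 genes, the gene lists and the tests were chosen with earlier results of these data known. All 10 genes are named in every comparison. From each list, up to 3 members with the smallest p were named, with some others, such as Ntsr2, Chga and Adcyap1, picked after their values were seen, and so were the genes whose values are given from lists outside that rule. For each of the 10, the 3 tested genes with the highest Pearson r are those called closest. Alternatives tried were other filters, probe set rules and arrays, a replicate block, array weights, centring, covariates for caudal Hox and muscle genes, and another neuronal list.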

Additional observations from a re-analysis of the deposited data

Results flagged for a closer look

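Of the 80 groups of arrays (10 genes in 8 groups), 5 held an array far from the others of its group by Dixon's criterion, which flags about 1 group in 20 by chance. Tac1 read 8.72 on WT day 1 replicate 4, while the other arrays of that group read 10.04 to 10.45, and this is the WT array that was also lowest at day 1 in the pan-neuronal mean, at 11.30. Tac1 read 9.72 on WT day 3 replicate 3, with the others at 10.35 to 10.37. Pdyn read 6.46 on WT day 3 replicate 2, above the 5.60 to 5.74 of the others. Cck read 8.74 on WT sham replicate 1, with the others at 8.96 on each array. Gal read 7.96 on KO day 7 replicate 4, above the 7.71 to 7.73 of the others. The causes were not tested.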

How the results depend on the processing

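Of 71 differences of the 10 genes that passed, on the deposited or the relative scale, 47 passed in every alternative run on their scale. These include the 34 fits that left out 1 array. The deposited scale had 12 other alternative fits. The relative scale had only the fast transmitter list, the replicate block and the fit without the 2 arrays lowest in the pan-neuronal mean. Other filters, probe set rules, array weights, centring and covariates were not tried on it. The counts of genes passing changed most when the Hox mean entered as a covariate. This gave 9 at WT day 1, 8 at WT day 3, 3 at KO day 3, 5 at KO day 7, 6 for KO against WT in sham, 8 and 5 for the genotype difference of the response (days 1 and 7), and 2 for day 7 against day 3. Of all tested genes 64.1%, 69.9%, 51.9%, 48.9%, 11.8%, 13%, 4.13% and 36% passed in these fits, in that order. Under it 3 estimates changed sign and passed, Cck (-1.50) and Calb2 (-0.73) for KO against WT in sham and Calb2 (0.59) for the genotype difference at day 7. Fits with only the groups compared gave 8 at KO day 7 (Grp, Nts, Cck, Penk and Sst gained), 1 for the genotype difference at day 7 (Tac1) and 1 for day 3 against day 1. Of all tested genes 66.3%, 0.475% and 52.9% passed in these. Day 3 against day 1 also counted 1 with no filter, where 39.4% of all genes passed. KO day 7 counted 6 with array weights, where 70.5% of all tested genes passed. Without the 2 arrays lowest in the pan-neuronal mean, both of KO day 3, the counts were 8 at WT day 1, 5 at KO day 7 and 2 at day 7 against day 3. The shares of all tested genes in that fit were 62.2%, 57.7% and 36.9%. Calls were gained there for Grp, Npy and Calb2 at WT day 1, Cck at KO days 1 and 7, Sst at KO day 7 and Tac1 at WT day 7, each with its difference unchanged and a smaller shared spread. A fit without the 3 arrays lowest in the 10 genes themselves is not used, since it picks arrays by the outcome. Calb2 relative to the neuronal genes at KO day 3 turned to 0.065 with fast transmitter genes. Leaving out 1 array gave 3 to 7 genes at WT day 1, 1 to 2 at day 3 against day 1, and 3 to 6 at KO day 1 relative to the neuronal mean.

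With the replicate number as a replicate block, 8 genes passed at WT day 1, against 5 without, and 60.7% of all tested genes passed. The labels do not say what a shared number means, and over 113 same-number pairs the median correlation of deviations was 0.0044 (26 above 0.1, 5 of 34 arrays closest to their own number), so the numbers are not treated as pairing. Among the 10 genes Pdyn lies nearest to background, and Lbx1, Oprk1, Sstr2 and Npy1r lie nearer, which limits the precision of their differences. Causes of these changes were not tested.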
